A study of Mus musculus with 13 samples.

Results

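The axon guidance ligands and receptors described here are 65 genes of the 13549 in the deposited count table of EED cKO and control oligodendrocyte-lineage cells. They were taken by symbol alone, as every semaphorin of classes Sema3 to Sema7, plexin, neuropilin, ephrin, Eph receptor, netrin, Slit, Robo, Unc5 receptor and Dcc in the table. The set holds 34 ligands (20 semaphorins, 8 ephrins, 3 netrins and 3 Slits) and 31 receptors (9 plexins, 2 neuropilins, 12 Eph receptors, 5 netrin receptors and 3 Robos). RefSeq lists 69 mouse symbols of these families. The other 4 (Epha1, Epha6, Ntn5 and Robo4) were not analysed here. Every one of the 65 genes was kept by the filter on low counts and tested.

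The RNA came from 9 libraries of cells cultured from the brains of C57BL/6 mice at postnatal days 6 and 7. Oligodendrocyte precursor cells (OPCs) were kept in a defined Sato medium containing PDGF and NT-3. Adding the thyroid hormone T3 and withdrawing PDGF for 2 days turned them into immature oligodendrocytes (iOLs). There were 2 control OPC libraries, 3 EED cKO OPC libraries, 2 control iOL libraries and 2 EED cKO iOL libraries, in which Eed was conditionally deleted. These groups were read from the sample titles, because the genotype entry says EED cKO for the control libraries too. Control OPC library 1 and cKO OPC libraries 1 and 2 came from day 7, and the other 6 libraries came from day 6. The sources used here do not give the Cre driver. Nor do they say whether replicates came from separate animals or cultures, and the p-values then measure only the spread between libraries, which may be technical. Another 4 samples, of chromatin immunoprecipitation and its input, were not analysed here.

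Guidance cues are secreted or membrane-bound proteins that steer growing axons and migrating cells by attraction or repulsion. Secreted class 3 semaphorins act mainly through neuropilins paired with plexins, whereas most membrane-bound semaphorins bind plexins directly. Ephrins are membrane-bound ligands of the Eph receptor tyrosine kinases, netrins bind Dcc and the Unc5 receptors, and Slits bind Robo receptors. Oligodendrocyte precursors carry many of these receptors, and semaphorins, ephrins and netrins are known to influence where precursors migrate and how oligodendrocytes extend processes. Eed belongs to PRC2, a Polycomb complex that places a repressive methyl mark on histone H3 and is known in mammals to occupy promoters rich in CG dinucleotides.

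For that reason the promoters of the genes that were called higher in cKO cells at both stages are shown, together with that of Plxnb3, which had the largest fall in cKO iOLs. The sequences are RefSeq windows on build GRCm38.p6, from 250 bases before to 50 bases after a gene start, written 5′ to 3′ on the gene's strand with every CG dinucleotide in capitals. Sema3f, also called higher at both stages, had no entry in the sequence table.
Efna3 (chr3:89322890-89323189, - strand): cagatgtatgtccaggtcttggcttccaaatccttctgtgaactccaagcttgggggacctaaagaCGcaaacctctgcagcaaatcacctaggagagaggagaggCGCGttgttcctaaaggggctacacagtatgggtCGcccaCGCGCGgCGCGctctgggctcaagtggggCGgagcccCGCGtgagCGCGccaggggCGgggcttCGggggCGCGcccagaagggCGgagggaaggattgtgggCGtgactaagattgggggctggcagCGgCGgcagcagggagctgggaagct
Nrp2 (chr1:62703067-62703366, + strand): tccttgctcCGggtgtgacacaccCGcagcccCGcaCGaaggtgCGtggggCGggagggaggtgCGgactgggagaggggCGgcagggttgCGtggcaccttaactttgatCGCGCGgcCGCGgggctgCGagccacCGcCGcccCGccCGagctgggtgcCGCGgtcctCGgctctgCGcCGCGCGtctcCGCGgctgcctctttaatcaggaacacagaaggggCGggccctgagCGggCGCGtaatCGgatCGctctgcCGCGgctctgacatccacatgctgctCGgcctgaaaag
Plxnd1 (chr6:115994956-115995255, - strand): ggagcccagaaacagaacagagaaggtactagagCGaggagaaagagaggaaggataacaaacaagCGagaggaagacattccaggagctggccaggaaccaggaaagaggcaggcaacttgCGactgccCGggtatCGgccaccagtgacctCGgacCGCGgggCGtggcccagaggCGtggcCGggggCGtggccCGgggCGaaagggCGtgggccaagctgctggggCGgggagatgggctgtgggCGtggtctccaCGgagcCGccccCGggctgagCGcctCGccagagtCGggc
Sema3a (chr5:13396534-13396833, + strand): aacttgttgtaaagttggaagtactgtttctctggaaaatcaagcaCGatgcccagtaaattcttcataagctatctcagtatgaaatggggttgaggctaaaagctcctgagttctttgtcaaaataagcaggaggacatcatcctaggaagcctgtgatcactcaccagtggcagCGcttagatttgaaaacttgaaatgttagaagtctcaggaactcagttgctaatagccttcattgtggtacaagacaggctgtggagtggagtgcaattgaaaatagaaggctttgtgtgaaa
Plxnb3 (chrX:73756853-73757152, + strand): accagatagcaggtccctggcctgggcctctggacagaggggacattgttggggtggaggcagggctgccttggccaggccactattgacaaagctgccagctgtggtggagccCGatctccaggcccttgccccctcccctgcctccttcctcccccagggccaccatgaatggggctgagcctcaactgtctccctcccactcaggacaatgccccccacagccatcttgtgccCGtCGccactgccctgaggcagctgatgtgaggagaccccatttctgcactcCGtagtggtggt
The Nrp2 window held 37 CG dinucleotides, more than the 23 of Plxnd1 and the 22 of Efna3, and 10.86% of the 10589 promoters of table genes with a window held as many or more. Plxnb3 with 4 and Sema3a with 2 stood at the other end, as 95.58% and 98.86% of promoters held as many or more. Over the 55 guidance genes with a window the median was 23 CG dinucleotides (range 2 to 56), against 21 for all 10589, of which 99.688% held at least 1. The motif CG reads the same on both strands. The median was 23 for the 15 guidance genes called higher in cKO iOLs and 23 for the 37 not called, and 4 for the 3 called lower that had a window. These counts describe the letters in the windows, since no binding or methylation data were used.

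Libraries held 17417529 to 19680398 assigned counts, of which the 65 genes took 0.426% to 0.572%. Single counts of these genes ran from 1 to 14012; 2 genes had under 10 counts in some library and 19 had under 100. Values are CPM, a gene's counts scaled to the library's total after TMM adjustment. Levels are compared between libraries for one gene and never between genes, because exon lengths were not used here. Eed itself was at 21.7 and 16.8 CPM in control OPCs, 13.3, 11.8 and 12.5 CPM in cKO OPCs, 18 and 21.2 CPM in control iOLs and 14.6 and 12.1 CPM in cKO iOLs, a log2 fold change of -0.62 ± 0.17 (SE) in OPCs (adjusted p = 0.0847) and -0.55 ± 0.18 in iOLs (adjusted p = 0.0973). At each stage all cKO libraries lay below all controls, but neither difference passed the test. The control OPC libraries stood farthest apart of all replicate pairs, with a chi-square per degree of freedom of 106 against 6.48 to 47.4 for the others. All 6 precursor markers and all 7 oligodendrocyte markers listed for the label check were in the table. The summed precursor markers stood at 11368 to 15032 CPM in OPCs and 3773 to 4606 CPM in iOLs. Summed oligodendrocyte markers were 6437 and 2179 CPM in control OPCs, 1985, 2744 and 1012 CPM in cKO OPCs, 4765 and 4926 CPM in control iOLs, and 1058 and 1483 CPM in cKO iOLs. The 8 astrocyte markers summed to 6286 and 6505 CPM in control iOLs and to 9456 and 11370 CPM in cKO iOLs. Gfap made up most of each of these sums, at 3778 and 3655 CPM in control iOLs and 6115 and 7938 CPM in cKO iOLs. All 8 had a positive log2 fold change in iOLs, but none passed the edgeR quasi-likelihood test (smallest adjusted p = 0.338, for Gfap). The 12 neuron markers summed to 931 to 954 CPM in control OPCs, 1104 to 1564 CPM in cKO OPCs and 1006 to 1079 CPM in iOLs. Map2 made up most of each sum, at 813 and 785 CPM in control iOLs and 725 and 686 CPM in cKO iOLs. Every other neuron marker had a positive log2 fold change in cKO over control iOLs. Of these, Tubb3, Gad2 and Nefl passed the edgeR quasi-likelihood test (adjusted p = 0.0442, 0.012 and 0.0116). In OPCs only Gad2 passed it (log2 fold change 2.55, adjusted p = 0.000154). Of the 7 endothelial markers, the 2 in the table (Flt1 and Kdr) summed to 1.87 and 2.79 CPM in control OPCs, 9.70 to 10.5 CPM in cKO OPCs, 35.3 and 40.4 CPM in control iOLs, and 87.5 and 103 CPM in cKO iOLs. Of the 8 microglia markers, P2ry12 was the one in the table, at 1.12 to 2.48 CPM. Of the erythroid markers Hbb-b1 was in the table, at 2877 and 562 CPM in control OPCs, 780.5 to 1044 CPM in cKO OPCs and 0.213 to 1.17 CPM in iOLs. Acta2, a marker of contractile mural cells, was at 0.368 to 1.18 CPM in OPCs and 153 to 262 CPM in iOLs. The other pericyte, fibroblast and meningeal markers in the table did not share this rise, and for each of them OPC and iOL libraries overlapped. Pdgfrb, for example, was at 10.4 to 35.8 CPM in OPCs and 3.12 to 13.1 CPM in iOLs. Col1a2 was at 17.1 to 42.9 CPM in OPCs and 12.5 to 39.0 CPM in iOLs. Rgs5 was at 2.34 and 2.47 CPM in control OPCs and 2.77 to 4.28 CPM in cKO OPCs. In iOLs it was at 1.36 and 0.944 CPM in controls and 5.59 and 5.23 CPM in cKO libraries. Of this list only Rgs5 was called between genotypes, in iOLs (log2 fold change 2.22, adjusted p = 0.00279, edgeR quasi-likelihood test). The part of these cell types in the results that follow was not tested. In bulk RNA, fewer cells of a type and less RNA per cell cannot be told apart.

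The first comparison asked how loss of Eed changed guidance genes in precursors. In cKO OPCs 10 of the 65 genes were higher and none was lower at an adjusted p under 0.05 (edgeR quasi-likelihood test, Benjamini-Hochberg over all 13549 genes). They were the ligands Sema3a, Sema3f, Efna3 and Efna5 and the receptors Nrp2, Plxnd1, Epha2, Epha7, Ephb1 and Unc5d. Of all genes in the table, 3.25% were called, 2.94% higher and 0.303% lower, against 15.4% of the guidance genes. The median log2 fold change was 0.14 over the guidance genes and -0.02 over all genes. At an unadjusted p under 0.05, 23 guidance genes were higher and 2 lower, against 1784 higher and 1693 lower of all 13549. In 23 the cKO libraries all lay above the controls and in 4 all below, against 16.9% and 17.4% of all genes. The number called was 5 when OPCs were fitted alone (1.40% of all genes), 18 with postnatal day as a term (10.2%) and 16 with DESeq2 (7.42%). With OPCs fitted alone the calls of Efna3, Ephb1, Nrp2, Sema3a and Unc5d ended (adjusted p from 0.0591 to 0.159). Without cKO OPC libraries 1, 2 and 3 in turn the number called was 4 (1.21% of all genes), 3 (1.22%) and 17 (15.8%). Fewer guidance genes and fewer of all genes were called without control OPC library 1, and more of both without control OPC library 2. Either of those fits leaves 1 control OPC library.

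The second comparison asked the same in immature oligodendrocytes. In cKO iOLs 19 guidance genes were higher and 4 were lower, together 35.4% of the 65, against 10.6% of all genes (7.08% higher and 3.51% lower). The higher group held 11 ligands (Sema3a, Sema3f, Sema4f, Sema7a, Efna3, Efnb1, Efnb3, Ntn1, Ntn4, Slit1 and Slit2) and 8 receptors (Nrp1, Nrp2, Plxna2, Plxnc1, Plxnd1, Epha3, Ephb2 and Ephb3). The lower group held Plxnb3, Sema4d, Sema5a and Sema6a. The median log2 fold change was 0.55 over the guidance genes and -0.00 over all genes. The cKO and control libraries did not overlap for 44 guidance genes that were higher and 13 that were lower, against 33.6% and 34.3% of all genes. The count called was 42 when iOLs were fitted alone (27.3% of all genes) and 39 with postnatal day as a term (19.8%). Without cKO OPC libraries 1, 2 and 3 in turn the count was 21 (8.13% of all genes), 21 (8.08%) and 27 (13.1%). Fewer guidance genes and fewer of all genes were called without any single iOL library, and more of both without either control OPC library. Each of those iOL and control OPC omissions leaves 1 library in a group. Sema3a, Sema3f, Nrp2, Plxnd1 and Efna3 were called higher at both stages. The sign of the fold change was the same at both stages for 42 of the 65 genes. These comparisons share no library, but they share one estimate of the spread.

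**Figure D1:**
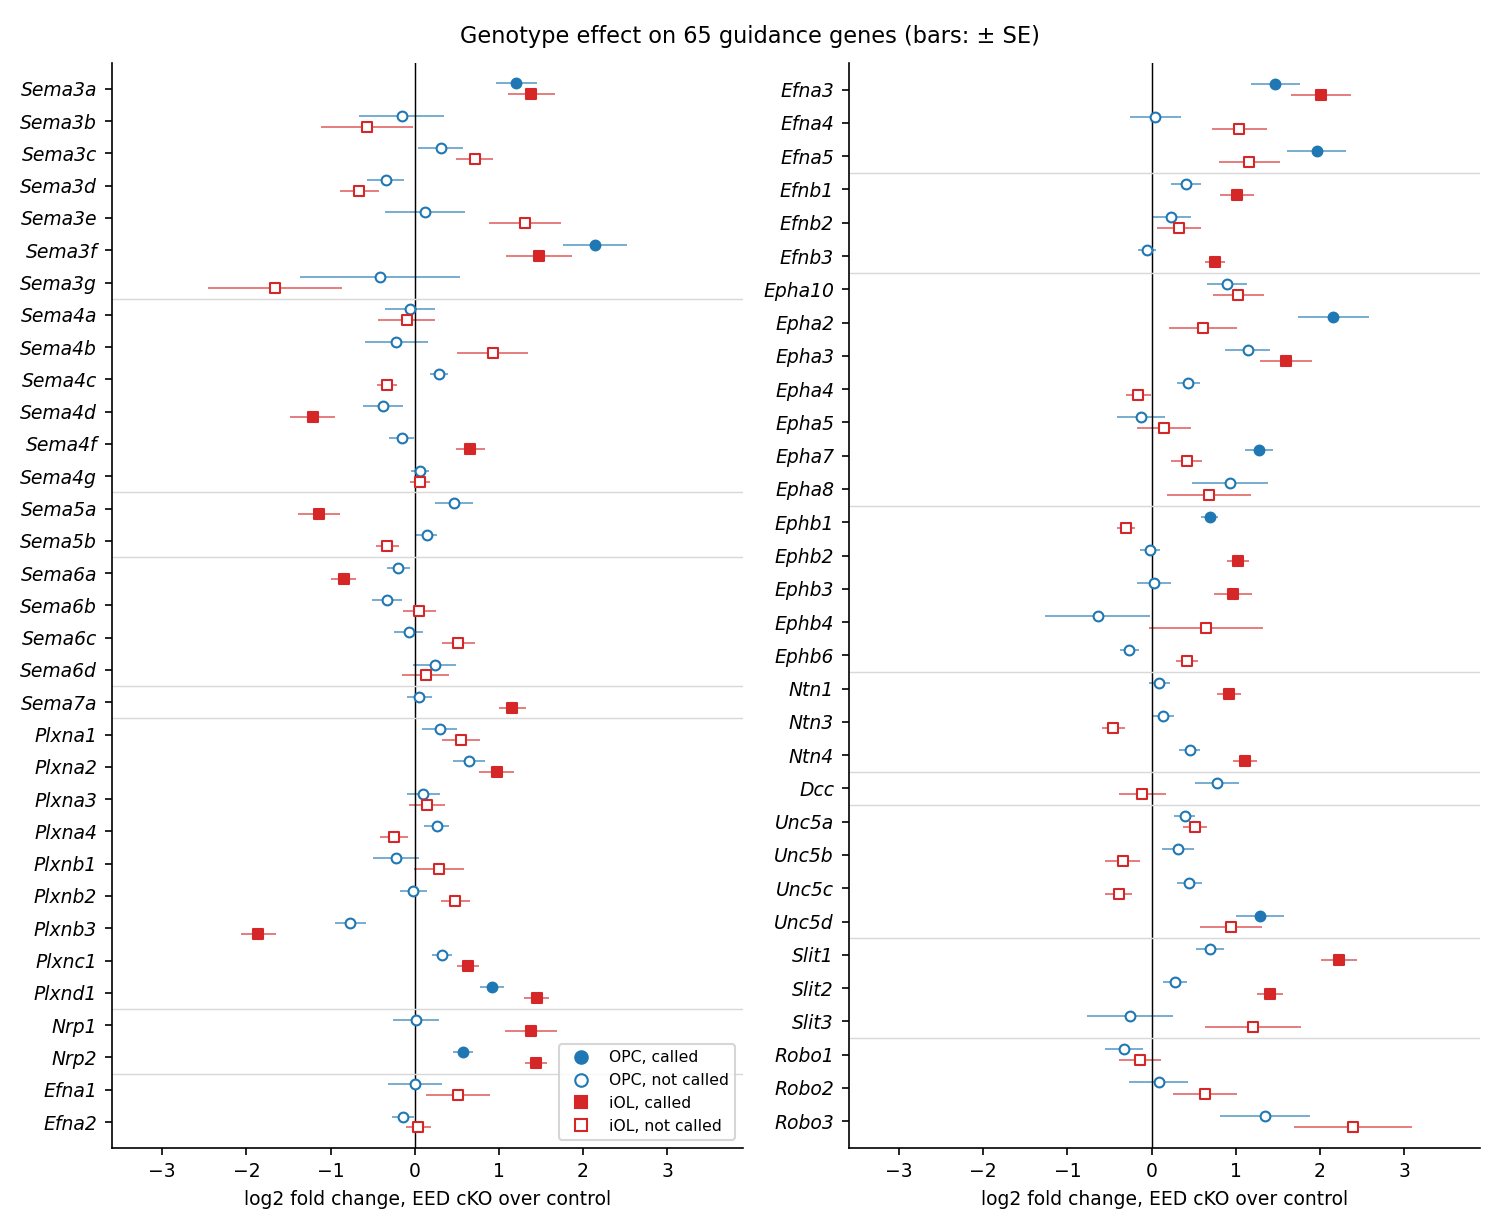
Log2 fold change of each of the 65 guidance genes in EED cKO over control cells (x axis), by gene family (rows), with bars of ± 1 SE; circles are OPCs, squares are iOLs, and filled symbols passed an adjusted p under 0.05. The 10 filled circles all lie to the right of 0, and of the 23 filled squares 19 lie to the right and 4 to the left.

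Among secreted semaphorins, Sema3a, a repellent cue for axons and precursors, was at 3.51 and 4.63 CPM in control OPCs and 10.7, 8.56 and 9.08 CPM in cKO OPCs. In iOLs it was at 2.39 and 2 CPM in controls and 6.86 and 4.6 CPM in cKO libraries. Every cKO library was above both controls of its stage, by 2.31-fold in OPCs (log2 fold change 1.21 ± 0.25, adjusted p = 0.0317) and 2.61-fold in iOLs (1.38 ± 0.28, adjusted p = 0.0142). Sema3f, a relative that binds Nrp2, was at 1.82 and 1.05 CPM in control OPCs and 7.59, 5.6 and 5.78 CPM in cKO OPCs, and at 1.25 and 2.83 CPM in control iOLs and 5.43 and 5.97 CPM in cKO iOLs. The groups did not overlap at either stage, and the difference was 4.42-fold in OPCs (2.14 ± 0.38, adjusted p = 0.0178) and 2.78-fold in iOLs (1.48 ± 0.39, adjusted p = 0.0401). None of the other 5 class 3 semaphorins was called in either genotype comparison. The OPC call of Sema3a ended without control OPC library 1, cKO OPC libraries 1 or 2, or either control iOL library (adjusted p up to 0.153), and that of Sema3f without cKO OPC libraries 1 or 2 (up to 0.0717). In iOLs the Sema3a call ended without either control iOL library or cKO iOL library 1 (up to 0.124), and the Sema3f call without any cKO OPC library, control iOL library 1 or either cKO iOL library (up to 0.253).

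The membrane-bound semaphorins moved in both directions, and only in iOLs did any pass the test. Sema7a, a lipid-anchored semaphorin that binds Plxnc1 and integrins, was at 31.6 and 26.3 CPM in control iOLs and 55.4 and 74.1 CPM in cKO iOLs. That 2.24-fold difference (1.16 ± 0.16, adjusted p = 0.00298) had no counterpart past the threshold in OPCs, where all 5 libraries stood between 29.6 and 32.8 CPM (adjusted p = 0.83). Sema4f, a transmembrane semaphorin, rose 1.58-fold from 6.42 and 7.33 CPM to 9.74 and 12 CPM (0.66 ± 0.17, adjusted p = 0.0399). The other 3 called members fell. Sema5a, which can attract or repel axons, was at 381 and 396 CPM in control and 139 and 215 CPM in cKO iOLs, a log2 fold change of -1.13 ± 0.25 (adjusted p = 0.0199). In OPCs the same gene was at 278 and 387 CPM in controls and 504, 508 and 369 CPM in cKO libraries, so the groups overlapped and the difference did not pass (adjusted p = 0.223). Sema4d, a ligand of Plxnb1 that oligodendrocytes carry, went from 152 and 155 CPM to 58.5 and 73.8 CPM in iOLs (-1.21 ± 0.27, adjusted p = 0.0195). Sema6a, a ligand of class A plexins also known from oligodendrocytes, went from 179 and 169 CPM to 101 and 92.8 CPM (-0.84 ± 0.15, adjusted p = 0.00803). The summed oligodendrocyte markers, at 4765 and 4926 CPM in control and 1058 and 1483 CPM in cKO iOLs, were lower in the same libraries as these 3 genes and Plxnb3. The iOL calls of Sema4d and Sema4f ended without any 1 of the 4 iOL libraries (adjusted p up to 0.164 and 0.281), and that of Sema4f also without cKO OPC libraries 1 or 2. Those of Sema5a and Sema6a ended without control iOL library 1 or cKO iOL library 1, that of Sema5a also without control iOL library 2 and that of Sema6a also without cKO iOL library 2 (up to 0.161 and 0.0768).

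**Figure D2:**
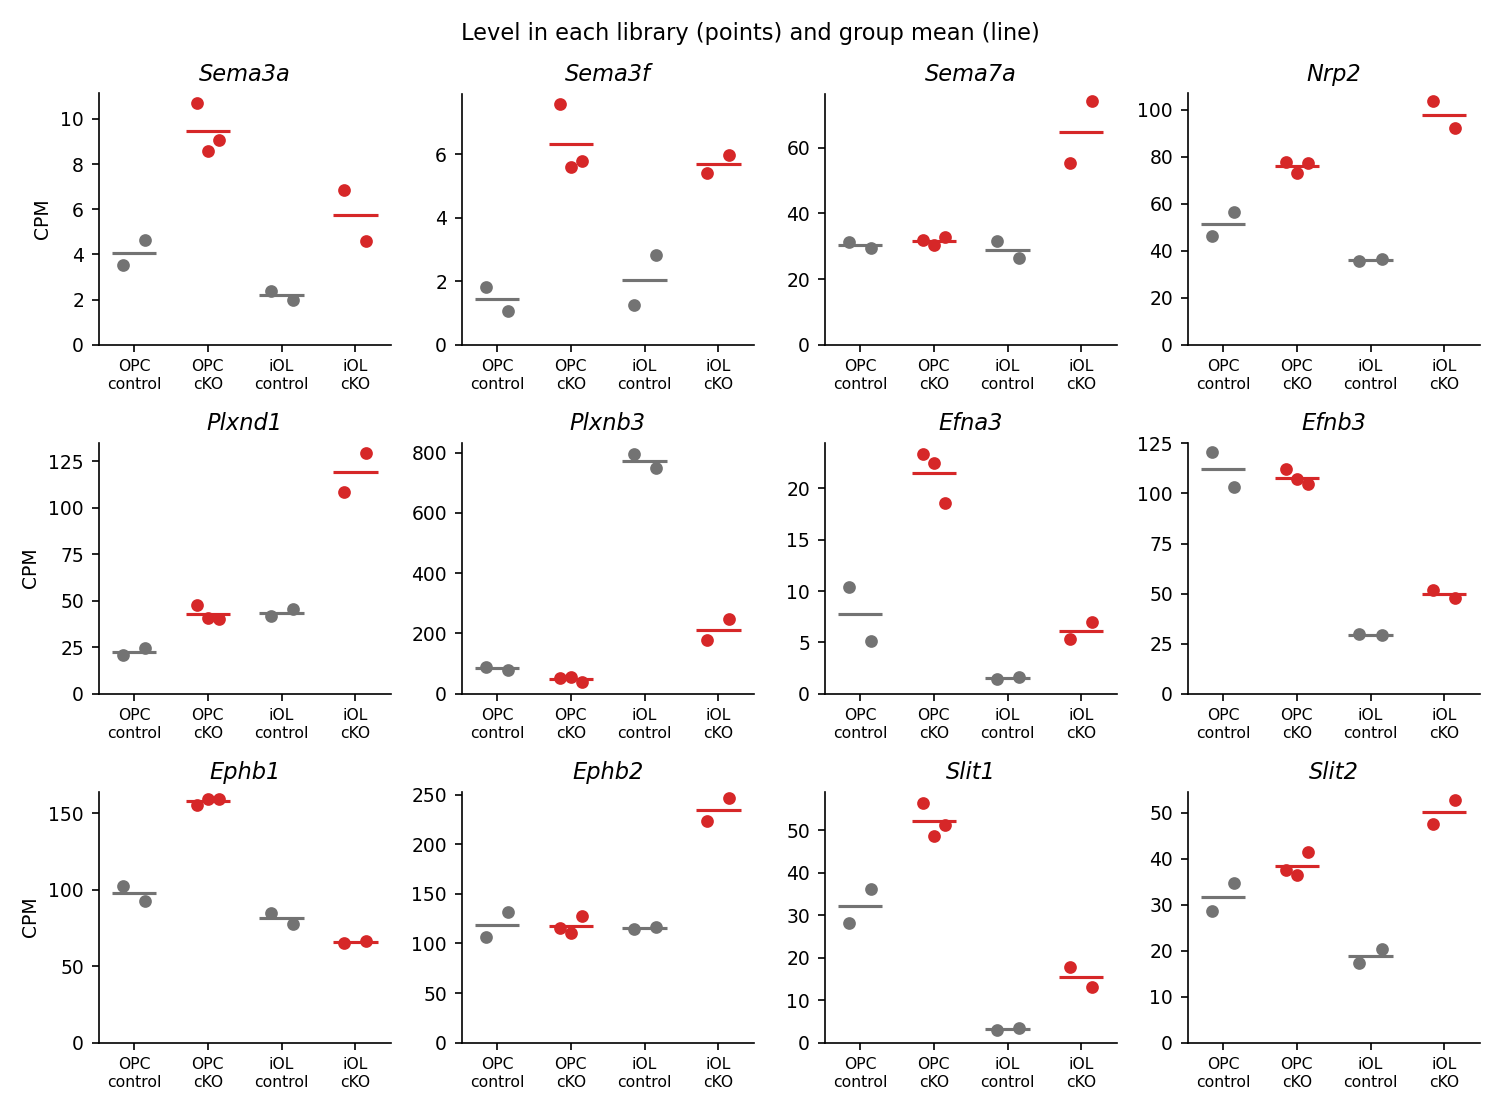
CPM of 12 guidance genes in each of the 9 libraries (points) with the group mean (line), for control (grey) and EED cKO (red) OPCs and iOLs; each panel has its own axis from 0. Plxnb3 reaches 796 and 750 CPM in control iOLs and stays at 179 and 247 CPM in cKO iOLs, while Nrp2, Plxnd1 and Slit2 are highest in cKO iOLs.

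Of the semaphorin receptors, both neuropilins and 3 plexins were higher in cKO iOLs and 1 plexin was lower. Nrp2, the neuropilin that binds Sema3f, was at 46.3 and 56.4 CPM in control OPCs and 77.8, 73.3 and 77.6 CPM in cKO OPCs. In iOLs it was at 35.7 and 36.5 CPM in controls and 104 and 92.3 CPM in cKO libraries. The cKO libraries were higher at both stages, by 1.48-fold in OPCs (0.57 ± 0.12, adjusted p = 0.0343) and 2.71-fold in iOLs (1.44 ± 0.13, adjusted p = 0.00058). Nrp1, the neuropilin that binds Sema3a, was at 14.3 and 12.1 CPM in control and 28.1 and 40.5 CPM in cKO iOLs (2.6-fold, 1.38 ± 0.31, adjusted p = 0.0215), and in OPCs its groups overlapped (0.02 ± 0.27, adjusted p = 0.969). Plxnd1, the receptor of Sema3e, was at 20.7 and 24.6 CPM in control OPCs and 47.5, 40.9 and 40.0 CPM in cKO OPCs, and at 41.6 and 45.5 CPM in control iOLs and 108 and 129.7 CPM in cKO iOLs. It was 1.89-fold higher in cKO OPCs (0.92 ± 0.14, adjusted p = 0.00934) and 2.73-fold higher in cKO iOLs (1.45 ± 0.15, adjusted p = 0.000881), with no overlap at either stage. Its ligand Sema3e stood at 6.13 and 14.8 CPM in control and 19.7 and 32.3 CPM in cKO iOLs, a difference that did not pass (1.31 ± 0.43, adjusted p = 0.087). The OPC call of Nrp2 ended without any library other than control OPC library 2 or cKO OPC library 3 (adjusted p up to 0.136), and that of Plxnd1 ended without control OPC library 1 (0.0583). The iOL call of Nrp1 ended without either control iOL library or cKO iOL library 2 (up to 0.147).

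Plxna2, a partner of neuropilins and receptor of Sema6a, rose from 64.9 and 60.8 CPM in control to 144 and 103 CPM in cKO iOLs (1.97-fold, 0.98 ± 0.21, adjusted p = 0.0178). Plxnc1, the receptor of Sema7a, rose from 40.1 and 40.2 CPM to 64 and 60.5 CPM (1.55-fold, 0.63 ± 0.13, adjusted p = 0.016). Both had all cKO libraries above the controls in OPCs as well, without passing there (adjusted p = 0.107 and 0.143). Plxnb3, a class B plexin known as a receptor of Sema5a and from oligodendrocytes, was the largest fall among the 65 genes. It was at 89.1 and 79.4 CPM in control OPCs and 52, 57.1 and 39.4 CPM in cKO OPCs, and at 796 and 749.8 CPM in control iOLs and 179 and 247 CPM in cKO iOLs. The fall was 3.63-fold in iOLs (-1.86 ± 0.21, adjusted p = 0.00111) and did not pass in OPCs (-0.77 ± 0.18, adjusted p = 0.0586), although no cKO OPC library reached a control. Plxna1, Plxna3, Plxna4, Plxnb1 and Plxnb2 were called in neither genotype comparison. The iOL calls of Plxna2 and Plxnc1 ended without either control iOL library or cKO iOL library 1 (adjusted p up to 0.151 and 0.127), and that of Plxnc1 also without cKO iOL library 2.

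In the ephrin and Eph group every call between genotypes was upward. Efna3, a lipid-anchored ligand of EphA receptors, was at 10.4 and 5.11 CPM in control OPCs and 23.4, 22.5 and 18.6 CPM in cKO OPCs, and at 1.42 and 1.61 CPM in control iOLs and 5.32 and 6.98 CPM in cKO iOLs. The cKO libraries were above the controls by 2.77-fold in OPCs (1.47 ± 0.29, adjusted p = 0.0264) and 4.05-fold in iOLs (2.02 ± 0.36, adjusted p = 0.00821). Efna1 and Efna4 lie beside Efna3 on chromosome 3, with gaps of 32947 and 10453 bases, and neither was called in a genotype comparison (adjusted p between 0.0782 and 0.99). Efna5, an ephrin known for repelling axons in topographic maps, was at 1.35 and 2.47 CPM in control OPCs and 6.08, 7.81 and 8.62 CPM in cKO OPCs, a 3.89-fold difference with no overlap (1.96 ± 0.35, adjusted p = 0.0178). In iOLs the Efna5 levels of 1.93 and 3.28 CPM and 4.95 and 6.72 CPM did not differ past the threshold (1.16 ± 0.36, adjusted p = 0.075). The transmembrane ephrins were called in iOLs alone. Efnb1 went from 10.8 and 10.7 CPM to 21.6 and 21.7 CPM (2.02-fold, 1.01 ± 0.20, adjusted p = 0.0137) and Efnb3, a midline cue for axons, from 29.9 and 29.1 CPM to 51.6 and 47.6 CPM (1.68-fold, 0.75 ± 0.12, adjusted p = 0.0052). Efnb2, at 19.6 and 20.7 CPM and 27.9 and 22.5 CPM in these groups, was not called (adjusted p = 0.543). The OPC call of Efna3 ended without cKO OPC libraries 1 or 2 (adjusted p up to 0.106) and that of Efna5 without control OPC library 1 or cKO OPC library 2 (up to 0.103). In iOLs the calls of Efna3, Efnb1 and Efnb3 ended without either control iOL library (up to 0.0838, 0.104 and 0.0571); cKO iOL library 1 also ended those of Efnb1 and Efnb3, and cKO iOL library 2 those of Efna3 and Efnb1.

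None of the Eph receptors was called at both stages, with Epha2, Epha7 and Ephb1 called in OPCs and Epha3, Ephb2 and Ephb3 in iOLs. A test of the difference between stages was past the threshold for Ephb1 and Ephb2 and not for the other 4. Epha2 was at 1.82 and 1.63 CPM in control OPCs and 8.79, 9.21 and 5.16 CPM in cKO OPCs (4.47-fold, 2.16 ± 0.42, adjusted p = 0.0264). Epha7 was at 7.85 and 6.47 CPM in control OPCs and 18.2, 18.5 and 15.4 CPM in cKO OPCs (2.43-fold, 1.28 ± 0.17, adjusted p = 0.0037). Of the 10 OPC calls, that of Epha7 was the one present under every setting tried. Ephb1, a receptor of transmembrane ephrins, was at 103 and 93 CPM in control OPCs and 155, 159.6 and 159 CPM in cKO OPCs (1.61-fold, 0.69 ± 0.10, adjusted p = 0.00587). In iOLs the Ephb1 levels were 85 and 77.6 CPM and 65.1 and 66.7 CPM, so there the cKO libraries lay below the controls, without passing the test (-0.30 ± 0.11, adjusted p = 0.118). Epha3 went from 2.04 and 1.44 CPM in control to 5.64 and 4.92 CPM in cKO iOLs (3.02-fold, 1.6 ± 0.31, adjusted p = 0.012). Ephb2 went from 114 and 116 CPM to 223 and 246 CPM (2.04-fold, 1.03 ± 0.13, adjusted p = 0.00198), whereas its OPC levels of 107 and 131 CPM in controls and 115, 111 and 127 CPM in cKO libraries overlapped. For Ephb3 the iOL levels were 26 and 27.8 CPM and 47.9 and 57.3 CPM (1.96-fold, 0.97 ± 0.23, adjusted p = 0.027). The remaining 6 Eph receptors (Epha4, Epha5, Epha8, Epha10, Ephb4 and Ephb6) were called in neither comparison. The Epha2 call ended without control OPC library 1, cKO OPC libraries 1 or 2 or either cKO iOL library (adjusted p up to 0.130). The iOL calls of Epha3 and Ephb3 ended without either control iOL library or cKO iOL library 1 (up to 0.0991 and 0.181), and that of Ephb3 also without cKO iOL library 2.

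Of the netrins and Slits, Ntn1, Ntn4, Slit1 and Slit2 were called in iOLs, and none was called in OPCs. The test of the difference between stages was past the threshold for Slit1 and Slit2 and for no netrin. In OPCs Ntn4 was also higher in cKO on both postnatal days, without a call. Ntn1, the founding netrin, was at 134 and 120.4 CPM in control iOLs and 243 and 238 CPM in cKO iOLs (1.89-fold, 0.92 ± 0.14, adjusted p = 0.00415), while in OPCs all 5 libraries lay between 278 and 355 CPM. Ntn4, a laminin-like netrin of basement membranes, rose from 13.6 and 12.6 CPM to 28.6 and 28 CPM (2.16-fold, 1.11 ± 0.14, adjusted p = 0.00198). Ntn3 had the opposite order, with 124 and 124 CPM in control and 90.2 and 90.7 CPM in cKO iOLs, and did not pass (-0.45 ± 0.14, adjusted p = 0.0664). Of the 5 netrin receptors only Unc5d was called. Its levels were 4.51 and 5.32 CPM in control and 13.2, 9.53 and 13.4 CPM in cKO OPCs (2.45-fold, 1.29 ± 0.29, adjusted p = 0.0449). Dcc, the attractive netrin receptor, was at 34.1 and 69.8 CPM in control and 95.6, 97.4 and 74.2 CPM in cKO OPCs; all cKO libraries were above the controls, which lay far apart from each other, and the difference did not pass (0.78 ± 0.26, adjusted p = 0.129). The iOL call of Ntn1 ended without control iOL library 2 (adjusted p = 0.0556). The Unc5d call ended without control OPC library 1, cKO OPC libraries 1 or 2 or either control iOL library (up to 0.187).

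Slit1 and Slit2, repellents of commissural axons in the nervous system, were both higher in cKO iOLs, and Slit1 had the largest rise of the ligands called there. Slit1 was at 28.2 and 36.1 CPM in control OPCs and 56.4, 48.7 and 51.2 CPM in cKO OPCs, where it missed the threshold (0.70 ± 0.17, adjusted p = 0.0649). In iOLs its levels were 3.07 and 3.5 CPM in controls and 17.7 and 13 CPM in cKO libraries, 4.67-fold higher (2.22 ± 0.21, adjusted p = 0.000691). Slit2 was at 17.3 and 20.4 CPM in control iOLs and 47.6 and 52.8 CPM in cKO iOLs (2.66-fold, 1.41 ± 0.15, adjusted p = 0.00106). None of their receptors was called between genotypes. Robo3 had the highest fold change of the 3 Robos but few reads, 0.0568 and 0.333 CPM in control and 1.33 and 0.793 CPM in cKO iOLs with a single count in control iOL library 1 (2.40 ± 0.70, adjusted p = 0.0615). Ephb2, Nrp2, Ntn4, Plxnb3, Plxnd1, Sema7a, Slit1 and Slit2 were the 8 of 23 iOL calls that were present under every setting tried, leaving out any library included.

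Postnatal day differed within both OPC groups, so the OPC differences were also taken within each day. Day 7 set 2 cKO libraries against 1 control, and day 6 set 1 cKO library against 1 control. All 10 genes called in OPCs were higher in cKO on both days. For each of them every cKO OPC library lay above both controls. The sign within each day was therefore fixed in advance and does not test the part of postnatal day. The log2 differences on day 7 ran from 0.61 for Ephb1 to 2.26 for Efna5, and those on day 6 from 0.46 for Nrp2 to 2.34 for Sema3f. Of all 65 genes, 29 were higher in cKO on both days, 12 were lower on both and 24 had opposite signs. Whatever the genotype, 15 guidance genes were higher in both day 6 OPC libraries than in all 3 day 7 OPC libraries, against 18.2% of all genes, and 7 were lower, against 17.7%. Sema4b, for example, was at 60.3 and 56.7 CPM on day 6 and 26.7 to 28.2 CPM on day 7, and Ephb4 was at 12.1 and 9.65 CPM on day 6 and 2.48 to 3.46 CPM on day 7. Summed astrocyte markers followed the same split, at 9635 and 7706 CPM in the day 6 OPC libraries and 2986 to 3419 CPM in the day 7 OPC libraries, and their part was not tested.

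A further pair of comparisons followed the 2-day step from OPC to iOL in each genotype. In control cells 12 guidance genes rose and 29 fell, or 63.1% of the 65, against 46.3% of all genes (21% higher and 25.3% lower). In cKO cells 11 rose and 26 fell, or 56.9%, against 40.3% of all genes (18.5% higher and 21.8% lower). In control cells the iOL and OPC libraries did not overlap for 12 guidance genes higher in iOLs and 33 lower, against 34.3% and 37.6% of all genes, and in cKO cells for 17 higher and 37 lower, against 34.3% and 34.7%. The median log2 fold change of the guidance genes was -0.38 in control and -0.36 in cKO cells, against -0.06 and -0.00 for all genes. Plxnb3, Plxnd1, Robo2, Sema3c, Sema3d, Sema3e and Sema4c rose in both genotypes, and 21 genes fell in both. All iOL libraries came from day 6. Set against the day 6 OPC library of the same genotype alone, all 41 genes called in control cells and all 37 called in cKO cells kept the sign of their change. The same libraries had entered the calls, so a change of sign was unlikely from the outset. The part of postnatal day was not tested by this.

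**Figure D3:**
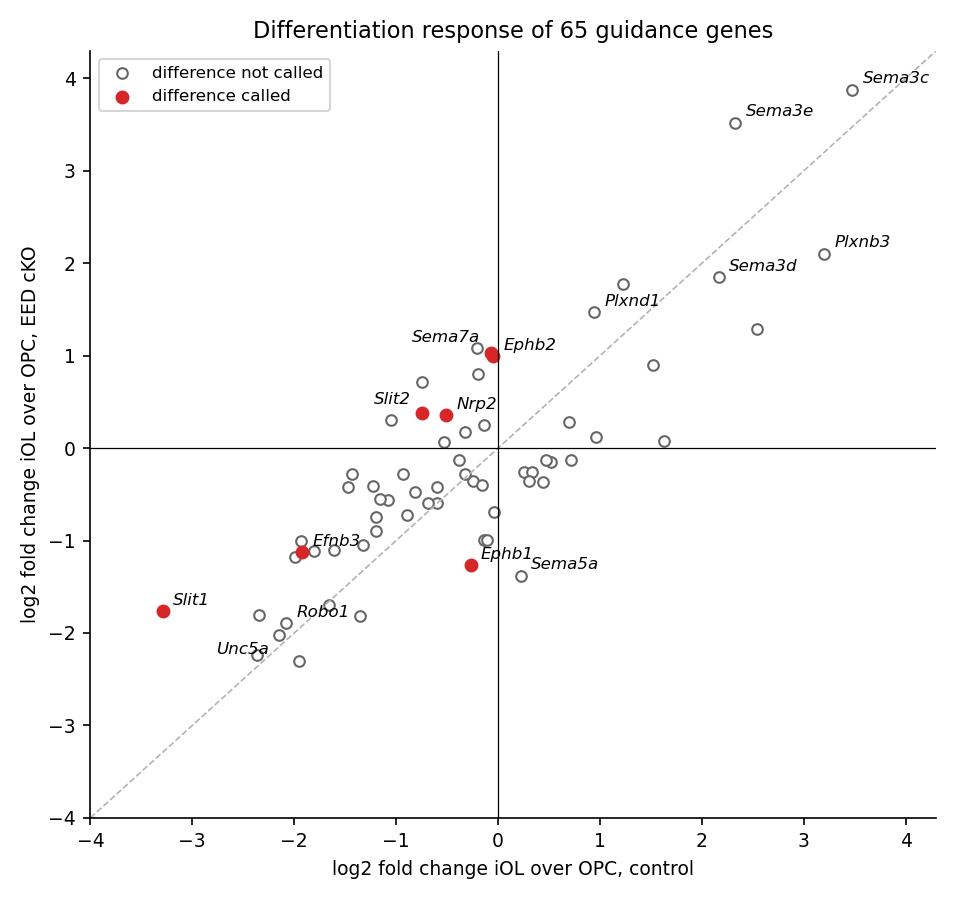
Log2 fold change from OPC to iOL in control cells (x axis) and in EED cKO cells (y axis) for the 65 guidance genes; red points had a difference between these changes at an adjusted p under 0.05, and the dashed line marks equal changes. Of the 7 red points, Slit1, Efnb3, Slit2, Nrp2, Sema7a and Ephb2 lie above the dashed line and Ephb1 lies below it.

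Of the 20 semaphorins 6 rose and 7 fell in control cells, and 5 rose and 7 fell in cKO cells. Of all genes 21% rose and 25.3% fell in control cells, and 18.5% rose and 21.8% fell in cKO cells. No ephrin was called higher in either genotype. Sema3c, a secreted cue that can attract as well as repel, was at 2.34 and 1.32 CPM in control and 2.06, 2.48 and 2.22 CPM in cKO OPCs, and at 19.8 and 20.7 CPM in control and 29.2 and 37.3 CPM in cKO iOLs. All 4 iOL libraries were far above all 5 OPC libraries, by 11.1-fold in control (3.48 ± 0.26, adjusted p = 1.5e-05) and 14.7-fold in cKO cells (3.88 ± 0.22, adjusted p = 4.31e-06). Sema3d, another secreted semaphorin, was at 50.4 and 55.1 CPM in control and 46.4, 50.6 and 27.5 CPM in cKO OPCs, and at 244 and 229 CPM in control and 151 and 149 CPM in cKO iOLs. It rose 4.48-fold in control (2.16 ± 0.24, adjusted p = 0.00012) and 3.61-fold in cKO cells (1.85 ± 0.21, adjusted p = 0.000151). Sema3e, at 1.93 and 2.21 CPM in control and 1.95, 3.29 and 1.55 CPM in cKO OPCs, rose to 6.13 and 14.8 CPM in control iOLs (2.33 ± 0.48, adjusted p = 0.00382) and to 19.7 and 32.3 CPM in cKO iOLs (3.52 ± 0.41, adjusted p = 0.000186). These 3 genes and Sema3a all lie on chromosome 5, and Sema3a went the other way, falling in both genotypes (-0.89 ± 0.28 in control and -0.72 ± 0.24 in cKO cells, adjusted p = 0.0285 and 0.038). Sema4c, a transmembrane ligand of Plxnb2, rose 2.87-fold from 49.9 and 46.1 CPM to 139 and 136 CPM in control cells (adjusted p = 1.94e-05) and 1.87-fold from 63.7, 56.9 and 55 CPM to 104 and 115 CPM in cKO cells (adjusted p = 0.000187). A call of Sema3g in control cells rested on 1 library: it was at 0.738 and 6.5 CPM in control iOLs and 0.937 and 0.316 CPM in control OPCs, so the groups overlapped, and the adjusted p of 0.0373 became 0.798 without control iOL library 2. It passed in no omission other than that of control iOL library 1. In control iOL library 2 Col1a1, Col1a2 and Col3a1, markers of fibroblast-like cells, were at 31.6, 39.0 and 15.6 CPM. In control iOL library 1 they were at 6.64, 13.2 and 2.61 CPM. All 7 pericyte, fibroblast and meningeal markers in the table summed to 358 CPM in library 2 and 225 CPM in library 1. Acta2 made up most of both sums, at 262 and 197 CPM, and Rgs5 went the other way, at 0.944 and 1.36 CPM. The part of these cells was not tested. The Sema3a falls ended without control OPC library 2 or either control iOL library in control cells (up to 0.150), and without cKO OPC libraries 1 or 2, either control iOL library or cKO iOL library 2 in cKO cells (up to 0.286).

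Among the falling semaphorins, Sema5b, a transmembrane relative of Sema5a, was at 293 and 338 CPM in control OPCs and 115 and 133 CPM in control iOLs (-1.35 ± 0.14, adjusted p = 7.95e-05). In cKO cells it went from 384, 338 and 324 CPM to 99.5 and 98 CPM (-1.82 ± 0.13, adjusted p = 1.4e-05). Sema4f fell from 28.9 and 25.9 CPM to 6.42 and 7.33 CPM in control cells (-1.99 ± 0.17, adjusted p = 2.93e-05) and from 25.3, 25.8 and 22.6 CPM to 9.74 and 12 CPM in cKO cells (-1.18 ± 0.16, adjusted p = 0.000362). Plxnb3 had the largest rise of the receptors in control cells, 9.17-fold (3.20 ± 0.22, adjusted p = 8.59e-06), and rose 4.3-fold in cKO cells (2.11 ± 0.18, adjusted p = 3.2e-05). Plxnd1 rose 1.92-fold in control (0.94 ± 0.15, adjusted p = 0.000988) and 2.78-fold in cKO cells (1.47 ± 0.13, adjusted p = 3.9e-05). Plxnc1 fell in both (-1.20 ± 0.13 and -0.89 ± 0.12, adjusted p = 0.00011 and 0.00042).

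Of the 8 ephrins 5 fell in both genotypes (Efna1, Efna2, Efna3, Efnb1 and Efnb3), and of the 12 Eph receptors 5 fell in control and 7 in cKO cells. Efnb3 was at 121 and 103 CPM in control OPCs and 112, 107 and 105 CPM in cKO OPCs, and with the iOL levels given above it fell by 1.93 on the log2 scale in control cells (adjusted p = 6.61e-06) and by 1.12 in cKO cells (adjusted p = 6.8e-05). Ephb6, an Eph receptor known to lack kinase activity, was at 87.6 and 83.7 CPM in control and 71.9, 64.9 and 77.5 CPM in cKO OPCs, and at 25.6 and 23.5 CPM in control and 31.5 and 34.4 CPM in cKO iOLs (-1.80 ± 0.13 and -1.12 ± 0.12, adjusted p = 1.22e-05 and 0.000111). Epha10, which is likewise thought to be kinase-inactive, was at 12.3 and 9.21 CPM in control and 24.1, 21.4 and 14.6 CPM in cKO OPCs, and at 1.82 and 2.33 CPM in control and 4.31 and 4.18 CPM in cKO iOLs (-2.37 ± 0.30 and -2.24 ± 0.26, adjusted p = 0.000231 and 0.000181). No iOL library of either gene overlapped an OPC library. Ephb1 fell in cKO cells (-1.26 ± 0.10, adjusted p = 2.15e-05) and did not pass in control cells (-0.27 ± 0.11, adjusted p = 0.0658). Ephb2 rose 1.99-fold in cKO cells (adjusted p = 0.000203) and was at -0.05 ± 0.13 in control cells (adjusted p = 0.789). Epha2, at 1.82 and 1.63 CPM in control OPCs and 3.07 and 7.61 CPM in control iOLs, rose in control cells (1.63 ± 0.45, adjusted p = 0.0152), a call that ended without either control OPC library or control iOL library 2 (up to 0.157). The falls of Efna1 and Efna2 in control cells ended without control iOL library 1 (0.0526 and 0.0746). In cKO cells those of Efna1, Efna2 and Efnb1 each ended without any of several single libraries, cKO OPC library 1 and both cKO iOL libraries among them (up to 0.179, 0.187 and 0.159), and that of Efna1 with postnatal day as a term (0.0881).

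Of the 5 netrin receptors 2 fell and 1 rose in control cells and 3 fell in cKO cells, and of the 3 Robos 1 fell and 1 rose in each genotype. Unc5a, a repulsive netrin receptor, was at 58.6 and 53.4 CPM in control and 80.6, 76 and 64.5 CPM in cKO OPCs, and at 12.8 and 12.5 CPM in control and 18.1 and 18.1 CPM in cKO iOLs (-2.14 ± 0.15 and -2.02 ± 0.14, adjusted p = 8.59e-06 and 8.18e-06). Its locus overlaps that of Hk3, and how reads from the shared stretch were counted was not examined here. Unc5c, of the same receptor family, rose in control cells from 93 and 114 CPM to 176 and 163 CPM (0.71 ± 0.16, adjusted p = 0.00569). In cKO cells its levels of 155, 152 and 118 CPM and 126 and 134 CPM overlapped (-0.13 ± 0.15, adjusted p = 0.519). Ntn1 fell from 297 and 301 CPM in control OPCs to the control iOL levels above (-1.23 ± 0.14, adjusted p = 0.000138), and in cKO cells from 355, 323 and 278 CPM (-0.41 ± 0.13, adjusted p = 0.0314), a call lost without cKO OPC libraries 1 or 2 or any iOL library (up to 0.165) and with postnatal day as a term (0.0933). Slit1 fell by 3.29 on the log2 scale in control cells (adjusted p = 7.6e-06) and by 1.76 in cKO cells (adjusted p = 8.36e-05). Robo1, the best-known Slit receptor, was at 113 and 214 CPM in control and 132, 122 and 138 CPM in cKO OPCs, and at 42.3 and 35.2 CPM in control and 36.3 and 34.1 CPM in cKO iOLs (-2.08 ± 0.26 and -1.89 ± 0.24, adjusted p = 0.000209 and 0.000292). Robo2 went the opposite way, from 17.5 and 41.5 CPM to 68.2 and 70.6 CPM in control cells (1.23 ± 0.39, adjusted p = 0.0273) and from 23.9, 25.2 and 45 CPM to 112 and 103 CPM in cKO cells (1.78 ± 0.34, adjusted p = 0.00294). The control call of Robo2 ended without control OPC library 1 or either control iOL library (up to 0.112).

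The difference between the genotypes in this step was tested directly, as the change in cKO minus the change in control cells. It was called for 7 guidance genes, or 10.8% of the 65, against 1.83% of all genes (0.945% higher and 0.886% lower). Slit1, Slit2, Ephb2, Sema7a, Nrp2 and Efnb3 changed upward relative to control, and Ephb1 downward. Slit2 and Nrp2 fell in control and rose in cKO cells: Slit2 was at 28.7 and 34.6 CPM in control and 37.5, 36.4 and 41.4 CPM in cKO OPCs before the iOL levels above, with changes of -0.75 ± 0.15 (adjusted p = 0.00358) and 0.39 ± 0.14 (adjusted p = 0.047). For Nrp2 the changes were -0.51 ± 0.13 in control (adjusted p = 0.011) and 0.36 ± 0.12 in cKO cells (adjusted p = 0.033). Sema7a was at -0.07 ± 0.16 in control cells and 1.03 ± 0.15 in cKO cells (adjusted p = 0.751 and 0.000533). Slit1 and Efnb3 fell in both genotypes and by less in cKO cells. The differences themselves were 1.53 ± 0.27 for Slit1 (adjusted p = 0.0316), 1.13 ± 0.20 for Slit2 (0.0341), 1.04 ± 0.18 for Ephb2 (0.0298) and 1.11 ± 0.22 for Sema7a (0.0438). Those of Nrp2, Efnb3 and Ephb1 were 0.87 ± 0.17 (0.0438), 0.80 ± 0.16 (0.043) and -0.99 ± 0.15 (0.0175). Sema5a, with -1.60 ± 0.34 and an adjusted p of 0.0501, and Plxnb3, with -1.09 ± 0.27 and 0.0827, did not pass. Set against the day 6 OPC libraries alone, all 7 kept their sign, but these libraries had entered the calls and the part of postnatal day was not tested by this. The cKO call of Slit2 and that of Nrp2 ended without cKO OPC libraries 1 or 2 or any iOL library (adjusted p up to 0.269 and 0.237), and the control call of Nrp2 without either control iOL library (up to 0.0741). With postnatal day as a term the rises of Slit2 and Nrp2 in cKO cells were 0.25 and 0.27 and neither passed (adjusted p = 0.172 and 0.111). The called difference of Nrp2 missed the threshold with the other size factors (0.0528). No guidance gene had a called difference without cKO OPC library 1 (0.24% of all genes), cKO OPC library 2 (0.19%) or any 1 of the 4 iOL libraries. Without cKO OPC library 3, 15 guidance genes had one, against 9.43% of all genes. More guidance genes and more of all genes also had one without control OPC library 2, a fit that leaves 1 control OPC library.

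**Figure D4:**
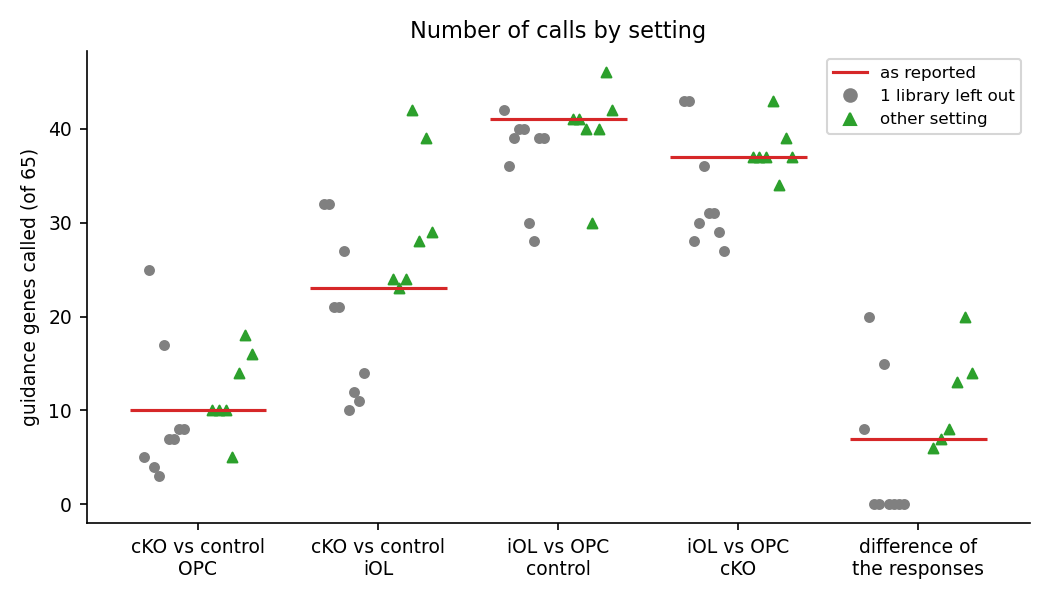
Number of the 65 guidance genes called (y axis) in each of the 5 comparisons (x axis); red lines are the reported counts, grey circles leave out 1 library each and green triangles are other fits or filters. The counts for differentiation stay between 27 and 46, whereas those for the genotype effect in OPCs run from 3 to 25 and those for the difference of the responses from 0 to 20.

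Of the coreceptors, adhesion molecules and cytoplasmic effectors that act with these cues, 88 listed genes were in the table. In OPCs 9 were higher and none lower in cKO, and in iOLs 17 were higher and 4 lower, with median log2 fold changes of 0.20 and 0.13, while 3.25% and 10.6% of all genes were called. The called genes with the smallest adjusted p in OPCs were Rgmb, a neogenin ligand (1.16 ± 0.20, adjusted p = 0.016), Tiam1, an exchange factor for Rac (1.07 ± 0.19, 0.0183), the actin-binding Ablim3 (1.06 ± 0.19, 0.0181) and the chemokine Cxcl12 (1.50 ± 0.28, 0.0209). In iOLs they were Cxcl12 (3.22 ± 0.30, 0.000621), the adhesion molecule Chl1 (1.36 ± 0.15, 0.00105), Islr2 (3.73 ± 0.47, 0.00182) and Fyn, a kinase downstream of netrin and semaphorin receptors, which was lower (-1.29 ± 0.15, 0.00124). During differentiation 25 rose and 26 fell in control cells and 17 rose and 27 fell in cKO cells, with medians of 0.01 and -0.00, while 46.3% and 40.3% of all genes were called. Mical1, a plexin effector, fell in both, by 2.48 in control and 1.87 in cKO cells on the log2 scale. The difference between genotypes was called for 7 of the 88, against 1.83% of all genes, among them Fyn (-1.22 ± 0.20, adjusted p = 0.0255) and Chl1 (1.08 ± 0.20, adjusted p = 0.0359). The OPC calls of Rgmb, Tiam1, Ablim3 and Cxcl12 ended without control OPC library 1 or cKO OPC library 2, those other than Rgmb also without cKO OPC library 1 (up to 0.103, 0.114, 0.0889 and 0.119), and all 4 with OPCs fitted alone. The differences of Fyn and Chl1 ended without cKO OPC libraries 1 or 2 or any 1 of the iOL libraries (up to 0.147 and 0.168).

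Called in none of the 5 comparisons were 15 guidance genes: Efna4, Efnb2, Epha4, Epha8, Ephb4, Plxna1, Plxna3, Plxna4, Plxnb2, Robo3, Sema3b, Sema6b, Sema6d, Slit3 and Unc5b. They include 4 of the 9 plexins, among them Plxna1, the partner of both neuropilins, at 158 and 157 CPM in control and 225 and 235 CPM in cKO iOLs (0.55 ± 0.23, adjusted p = 0.184). Sema6d was at 253 and 253 CPM and 259 and 296 CPM in the same groups (0.13 ± 0.28, adjusted p = 0.855). A p that misses the threshold does not show that the groups were alike. RefSeq loci of 32 of the 65 genes overlap another annotated gene, 5 of them a protein-coding one (Epha5, Ntn3, Plxna1, Sema3b and Unc5a), and the sources used here do not give the strand setting of the counting.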

How the data were processed

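RNA of 9 libraries was analysed from the authors' deposited table of raw read counts per gene. Per the labels' protocols, RNA was extracted with TRIzol, and a stranded poly(A) kit or, for small amounts, a Clontech SMARTer kit was used; the sources used here do not say which library had which kit. The submitters' processing notes name cutadapt 1.14, STAR 2.6.0, featureCounts of Subread 1.6.2 and build mm10. Groups come from sample titles, since the genotype entry reads EED cKO for control libraries as well, and 1 repeated header line inside the table was removed. Every gene in the deposited counts had at least 1 count in every library and 10 or more in at least 4, so genes absent from the table were not tested.

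Counts were tested with edgeR 4.0.16 (quasi-likelihood test, TMM factors, 4 group means in 1 fit of all 9 libraries, 5 residual degrees of freedom, biological coefficient of variation 16.3%) in R 4.3.3. Adjusted p-values are Benjamini-Hochberg over 13549 genes, called under 0.05. The filter (filterByExpr, minimum count 10) removed none. SE is the log2 fold change divided by the square root of F. A fold of the text is from the fit, on the scale of counts. The alternatives were other size factors, no filter, a filter of 1 CPM in 4 libraries, a fit of the compared groups alone, postnatal day as a term, the replicate number as a block, DESeq2 1.42.0 and leaving out each library. The procedure was tested on 5 simulations per comparison, each with 200 changed genes. All other genes had equal means in the 4 groups, and simulated libraries of a group did not differ by postnatal day or cell types. The shares below hold for that setting and may not hold for these data. Of 2-fold changes it found 69.2% for genotype in OPCs, 57.2% for genotype in iOLs and 21.2% for the difference of the responses. For differentiation it found 55% in control and 68.4% in cKO cells. The share of false calls was 6.87%, 6.86%, 6.45%, 4.98% and 5.64% in the same order, at a threshold of 0.05.

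The members, the effector list and the cell type markers were chosen with earlier results of these data known. For every member called between genotypes, values per library are given at the stage of the call and not always at the other stage. Values per library or their range are given for members called in the difference of the responses. The same holds for the 8 called members with the smallest adjusted p in each direction of each differentiation comparison, except the OPC levels of Plxnc1. Effectors named are up to 4 per comparison. Sequences and positions are from RefSeq, build GRCm38.p6; all 65 members had a position and 55 a promoter window. No 2 replicate libraries agreed within sampling noise.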

Additional observations from a re-analysis of the deposited data

Results flagged for a closer look

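For 7 guidance genes the change from OPC to iOL differed between cKO and control cells in a test of the difference itself (edgeR quasi-likelihood, adjusted over all genes). On the log2 scale the differences were 1.53 for Slit1 (adjusted p = 0.0316), 1.13 for Slit2 (0.0341), 1.11 for Sema7a (0.0438), 1.04 for Ephb2 (0.0298), 0.87 for Nrp2 (0.0438), 0.80 for Efnb3 (0.043) and -0.99 for Ephb1 (0.0175). Each missed the threshold without cKO OPC library 1, cKO OPC library 2 or any 1 of the 4 iOL libraries, with the highest adjusted p of each gene between 0.110 (Ephb1) and 0.209 (Nrp2). Set against the day 6 OPC libraries alone, the differences were 1.67 for Slit1, 1.15 for Slit2, 1.0 for Sema7a, 1.07 for Ephb2, 0.98 for Nrp2, 0.73 for Efnb3 and -1.08 for Ephb1.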

How the results depend on the processing

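No called fold change of a guidance gene changed sign under any alternative run. Fitting the compared groups alone gave 5 called guidance genes in OPCs (10 as reported) and 42 in iOLs (23 as reported). With postnatal day as a term the counts were 18 in OPCs, 39 in iOLs and 20 for the difference of the responses (7 as reported), and with DESeq2 they were 16 in OPCs and 14 for that difference. Other size factors, no filter and the stricter filter changed each count by at most 1. Leaving out each library gave 3 to 25 in OPCs, 10 to 32 in iOLs, 28 to 42 for differentiation in control cells (41 as reported), 27 to 43 in cKO cells (37 as reported) and 0 to 20 for the difference. Over these omissions 2 of 10 OPC calls, 8 of 23 iOL calls, 25 of 41 and 26 of 37 differentiation calls and 0 of 7 differences were kept throughout; the causes were not tested. In both genotype comparisons and in the difference, each omission moved the count over all genes the same way as the guidance count. Where an omission leaves 1 library in a group, that library is assumed to vary like the other groups. Over all genes the OPC comparison called 440, against 190 with OPCs fitted alone, 1382 with postnatal day as a term, 1941 with the replicate block and 1006 with DESeq2. The iOL comparison called 1434, against 3699 fitted alone and 2680 with the day term, and the difference 248, against 1202 with the day term, 1049 with the block and 823 with DESeq2. With the replicate number as a block, the guidance genes called were 14 in OPCs, 28 in iOLs, 40 and 34 in differentiation, and 13 for the difference. Same-numbered libraries of control and cKO OPCs had deviations that correlated at 0.313 and -0.352 and those of iOLs at 0.239. The first OPC pair shares a postnatal day and the second does not, and the labels tie the numbers to no animal, batch or day, so the numbers were not taken as pairing. Precision is limited by 5 residual degrees of freedom and, for 19 of the 65 genes, by under 100 counts in some library.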
